A study of Mus musculus with 2 samples.

Results

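Zfp608 and its paralog Zfp609 were described by the p300 peaks that surround them in the embryonic mouse cortex. A peak was counted for a gene when its midpoint lay within 1 Mb of its transcription start site, taken from the transcript that codes for the longest protein. Of the 6629 p300 peaks listed, 48 met this rule, 42 of them at Zfp608 and 6 at Zfp609. The pair was chosen on these counts with earlier results known, so the counts, the density and the spacing of the peaks are a description and carry no test. The tissue was dorsal cerebral wall, which holds the future neocortex, of Swiss Webster mouse embryos at E14.5 (14.5 days), from which the hippocampal and choroid plexus tissue had been cut away. Chromatin of the fixed tissue gave 1 library from an anti-p300 immunoprecipitation and 1 input library that received no antibody. There was no second library of either kind, no treatment and no altered genotype, and the input was used only inside the authors' peak calling. The dissected tissue held progenitors and neurons together, and a peak cannot be assigned to either.

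The co-activator p300 is a histone acetyltransferase that is recruited to DNA by transcription factors and is found at many active enhancers, including enhancers far from any promoter. An enhancer may act on a gene over long distances and past other genes, so a peak near a start site is not shown to regulate that gene. Zfp608 and Zfp609 encode large nuclear proteins with a zinc finger. ZFP609 is known to act with the cohesin loader NIPBL and the Integrator complex in progenitors of the cortex, whereas less is known of ZFP608. The basic helix-loop-helix factors of the Neurod and Neurog families bind E-boxes and drive neuronal differentiation, Lhx and Lmx homeodomain factors bind words with a TAAT core, and Nfi, Rfx, Sox, POU and T-box factors are also active in the developing cortex.

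The sequence of 3 Zfp609 peaks is shown to let the short words counted in both loci be seen in place. Each stretch is 160 bases of the plus strand of the NCBIM37 reference assembly, which is mm9, and capitals mark the words that were searched. The first is in intron 3 of Zfp609, at chr9:65572528-65572687. It has 1 E-box word (CAGCTG), 1 Nfi single site (TTGGCA) and 2 Sox words (ACAAAG and its reverse complement CTTTGT). The second is in an intron of Trip4, whose 3′ end lies beside the Zfp609 start, at chr9:65682545-65682704. Here a T-box word (TCACACC) runs directly into an E-box word, with another E-box and a homeodomain word (CAATTA) further on. The third is an intergenic stretch next to Igdcc4, at chr9:64942077-64942236, and has near its end the paired Nfi word, TGGC and GCCA separated by 5 bases.
peak 6406: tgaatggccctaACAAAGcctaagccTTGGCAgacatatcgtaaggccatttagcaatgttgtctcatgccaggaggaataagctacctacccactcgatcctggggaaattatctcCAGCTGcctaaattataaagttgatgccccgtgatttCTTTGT
peak 6407: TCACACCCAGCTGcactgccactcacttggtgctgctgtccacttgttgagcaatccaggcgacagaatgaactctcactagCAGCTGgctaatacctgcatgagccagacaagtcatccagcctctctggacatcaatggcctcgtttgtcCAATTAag
peak 6402: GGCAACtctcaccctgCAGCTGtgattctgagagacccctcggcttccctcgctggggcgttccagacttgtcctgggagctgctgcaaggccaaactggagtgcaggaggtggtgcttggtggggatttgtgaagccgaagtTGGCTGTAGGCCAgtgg

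All 6 Zfp609 peaks held an E-box word in their central 500 bp, as did 74.1% of all peaks, a share inside the exact interval for 6 peaks (54.1 to 100%). Only 1 of them, peak 6407, had Zfp609 as its nearest protein-coding start site, at 7.4 kb upstream. Peak 6406, 102.9 kb downstream and inside the gene, was nearer to the start of Rbpms2 (94.1 kb). The other 4 lay 625.7 to 733.1 kb downstream, 7.1 to 22.2 kb from the starts of Igdcc4, Igdcc3 and Parp16. Among these were peak 6402 and the intronic peaks 6403 (Igdcc4) and 6404 (Igdcc3), while peak 6405 overlapped the annotated exon of a U5 small nuclear RNA. Between peaks 6405 and 6406 there was a stretch of 521.64 kb with no peak, and beyond peak 6407 none was listed for 1076.41 kb.

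On mm9, Zfp608 (ENSMUSG00000052713) occupies bases 55047699 to 55152245 of chromosome 18, minus strand, with the start site used here at 55149834. Zfp609 (ENSMUSG00000040524) occupies bases 65539391 to 65675371 of chromosome 9, also on the minus strand, with its start at 65675371. Both genes had 10 exons in the transcript used, and the coding sequences were of 4533 and 4239 bases. Translated, they gave proteins of 1511 and 1413 residues, of which 687 of 1353 aligned residues (50.8%) were identical. In the best stretch of 100 aligned residues, 337 to 436 of ZFP608 and 275 to 374 of ZFP609, 86% were identical. A single match to the C2H2 zinc finger pattern was found in each protein, from residue 554 and residue 497, outside that stretch.

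The neighbourhoods of the paralogs differed widely. No other protein-coding gene started within 1 Mb of Zfp608, and 902.7 kb on its downstream side and 1407.7 kb on its upstream side held no coding gene. Its nearest coding neighbours started 1005.9 kb away (Gm5507) and 1410.2 kb away (Gramd3). Within 1 Mb of Zfp609, 33 other coding genes started, the nearest being 2810417H13Rik at 62.7 kb, and only 3.6 and 31.1 kb beside the gene were free of coding genes. Coding gene bodies covered 5.23% of the 2 Mb around the Zfp608 start and 71.4% of that around the Zfp609 start.

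**Figure D1:**
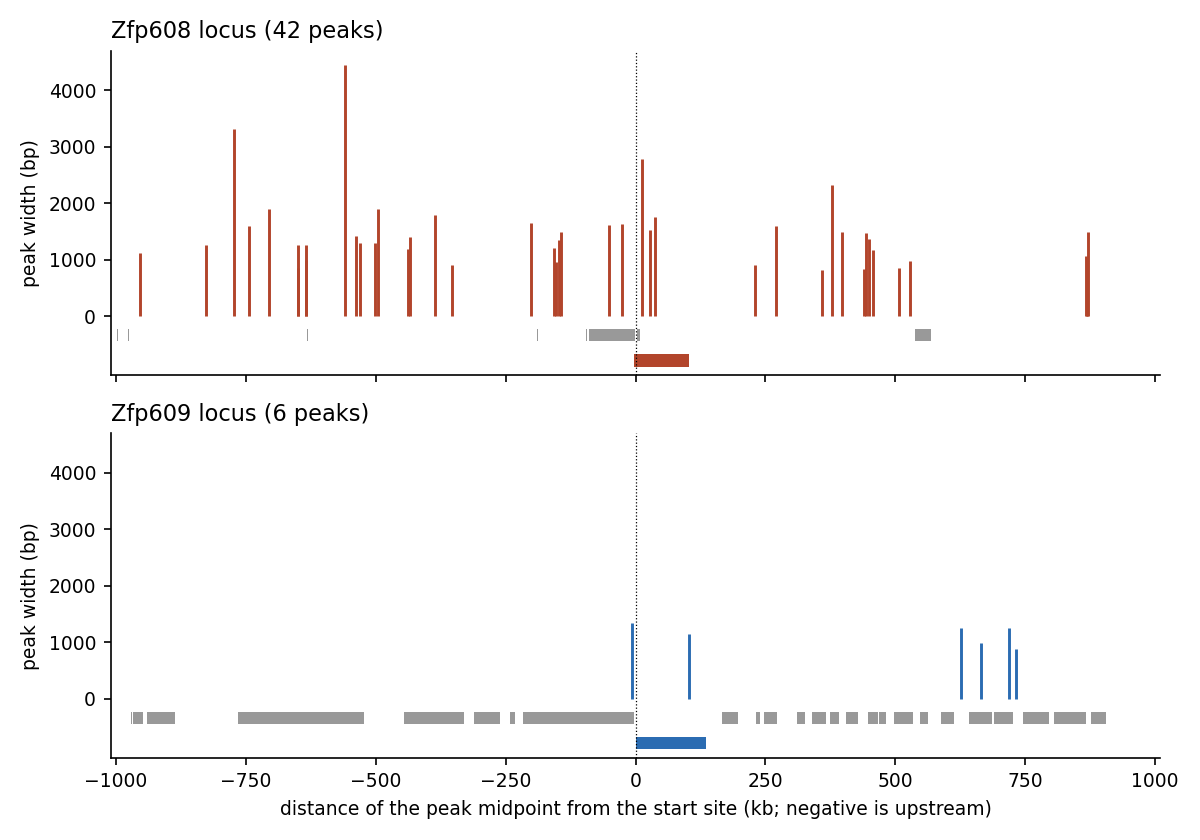
Position of each p300 peak relative to the start site (kb, negative values upstream) and its width (bp, bar height) at Zfp608 (42 peaks, top) and Zfp609 (6 peaks, bottom). The coloured box is the gene itself and grey boxes are its neighbours, all annotated genes at Zfp608 and the protein-coding genes at Zfp609. Peaks stand on both sides of Zfp608 to beyond 800 kb, and 4 of the 6 Zfp609 peaks lie together beyond 600 kb downstream.

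The 42 peaks of Zfp608 and the 6 of Zfp609 differed 7-fold in number. Among all 22367 protein-coding genes the median was 4 peaks within 1 Mb, with quartiles of 1 and 7. The Zfp609 count was an ordinary one, since 36.1% of coding genes had at least as many. At least 42 peaks were counted for 13 coding genes, or 0.0581%. The 12 others, Pitpnb (51 peaks) and Mn1 (50) among them, all started between 111759783 and 112878446 on chromosome 5, so that their windows overlapped. Zfp608 was the remaining one, on another chromosome and alone.

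Genes in gene-poor surroundings did not in general have many peaks. Of the coding genes, 67 (0.3%) had no other coding start site within 1 Mb, and their median was 2 peaks, with an upper quartile of 6. Zfp608 had the most of these 67, followed by Auts2 (29), Opcml (16), Robo1 (14) and Robo2 (14), genes with roles in neuronal development or axon guidance apart from Opcml, a cell adhesion gene. Tecrl and Dcc, with 12 peaks each, came next. The share of neuronal genes among the 67 was not counted. For Zfp609 the like comparison was with the 3218 coding genes that had 28 to 38 other coding starts within 1 Mb. Their median was 4 peaks, and 39% of them had 6 or more.

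**Figure D2:**
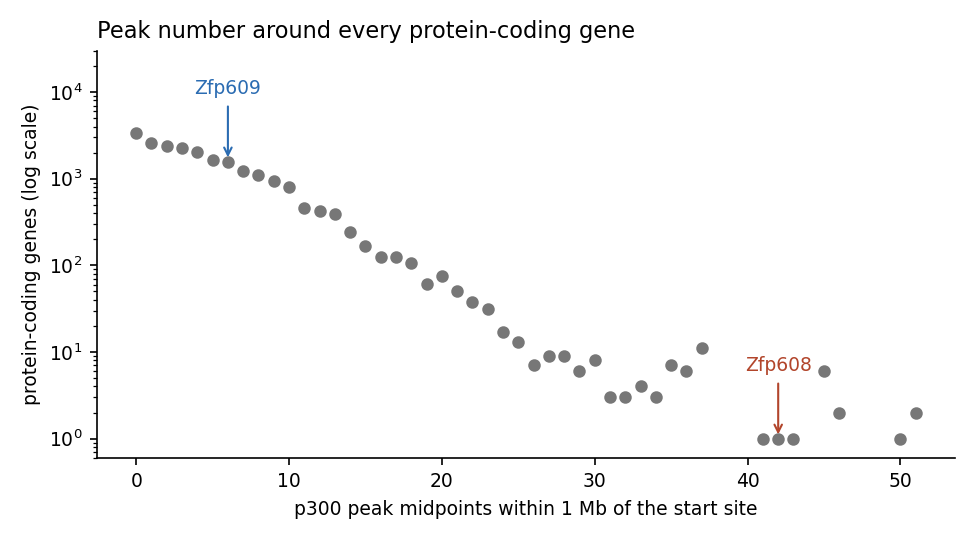
Number of protein-coding genes (log scale) with each number of p300 peak midpoints within 1 Mb of their start site, over 22367 genes. Zfp609 with 6 peaks lies in the bulk of the genes, and Zfp608 with 42 lies in the tail, where the 12 other genes at or above it come from a single stretch of chromosome 5.

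The authors' filter, which took out peaks at exons and within 2.5 kb of a start site, reached the windows unequally. By the annotation used here, 97% of the Zfp608 window (1.94 Mb) and 75.2% of the Zfp609 window (1.5 Mb) lay outside such places. Per Mb of that sequence there were 21.7 peaks at Zfp608 and 3.99 at Zfp609, a ratio of 5.44, and the peaks removed by the filter were not analysed here. Neither window had unassembled bases. Words of 36 bases, the read length, occurred once in the assembly at 91.2% of the positions of the Zfp608 window and at 93.1% of those of the Zfp609 window.

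The Zfp608 peaks lay on both sides of the start site, 25 upstream and 17 downstream. Within 500 kb there were 12 on each side, and within 250 kb there were 7 upstream and 4 downstream. Counted in bins of 200 kb from the farthest upstream to the farthest downstream, the numbers were 2, 7, 7, 3, 6, 3, 5, 6, 0 and 3. The density thus did not fall off steadily from the start site. By the annotation, 36 peaks were intergenic, 5 were intronic and 1 overlapped an exon, that of the noncoding RNA AC149599.1. For 32 the nearest protein-coding start was that of Zfp608, for 5 it was that of Gm5507 and for 5 that of Gramd3.

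The edges of the window were not equally sharp. On the downstream side the last peak counted was 2892, at 870.8 kb, and the next beyond the limit was 2891, at 1364.6 kb. On the upstream side peak 2933 lay at 954.4 kb, and peak 2934 just outside at 1024.7 kb, so the upstream series went on past the limit. At Zfp609 the outermost peaks inside were 6402 (733.1 kb downstream) and 6407 (7.4 kb upstream), and those outside were 6401 (1294.1 kb) and 6408 (1085.0 kb).

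Neighbouring midpoints in the Zfp608 locus were a median of 25.4 kb apart over 41 gaps, with quartiles of 5.8 and 50.7 kb. Over all 6609 neighbouring pairs on the same chromosome the median was 128.1 kb. Of the 41 gaps, 14 (34.1%) were under 10 kb and 30 (73.2%) under 50 kb, against 11.5% and 32% of all pairs. Short spacing follows from the high count by which the gene was chosen. At Zfp609 the 5 gaps ran from 15.03 to 522.8 kb with a median of 53.9 kb.

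**Figure D3:**
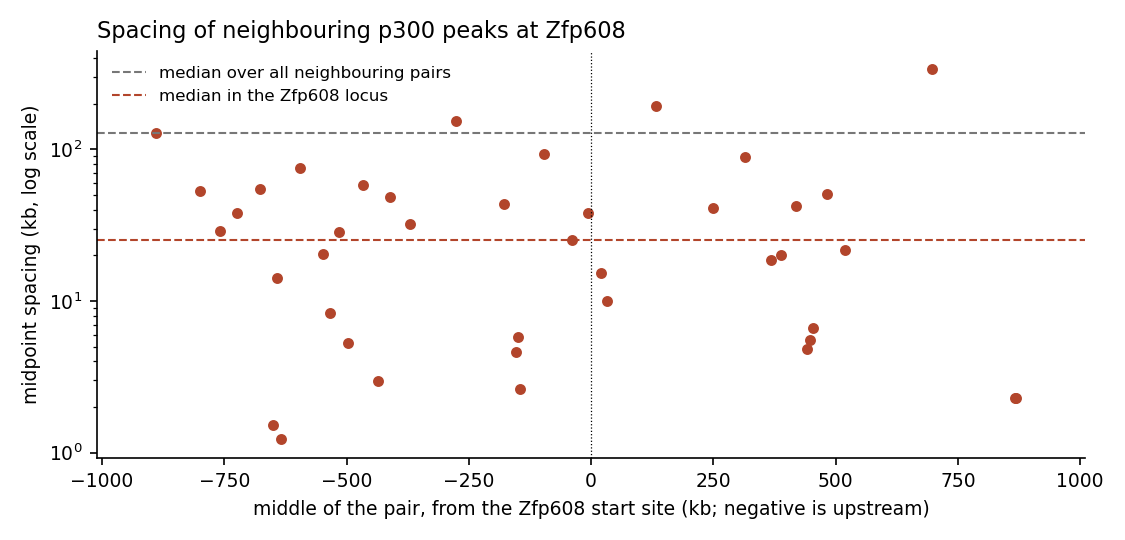
Spacing of each pair of neighbouring p300 peaks at Zfp608 (kb, log scale) against the position of the pair relative to the start site (kb). Spacings ranged from 1.23 to 337.1 kb, and the dashed lines mark the median at Zfp608 (25.4 kb) and over all neighbouring pairs (128.1 kb).

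Joining peaks of the window that were less than 100 kb apart gave 5 groups at Zfp608. From downstream to upstream these groups held 3, 11, 10, 17 and 1 peaks. The stretches without a peak between them measured 336.05, 190.26, 152.32 and 127.03 kb. Joining under 50 kb gave 11 groups, under 20 kb gave 23 and under 5 kb gave 31. At none of these distances did the peaks form 1 continuous block, and the number of groups followed the distance used. Whether the peaks were more clustered than scattered ones would be was not tested.

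The downstream end was a compact group of 3 peaks in 5.9 kb (54278331 to 54284216 on chromosome 18). Peaks 2892, 2893 and 2894 were 1483, 997 and 1063 bp wide, with 1.07 and 1.28 kb between them. All 3 had a homeodomain word in their central 500 bp, 3 words in peak 2892 and 1 in each of the others, and none had a Sox word there. They lay 135.1 to 139.7 kb from the start of Gm5507, far closer than to Zfp608.

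The second group, peaks 2895 to 2905, spanned 300.6 kb from 529.1 to 229.4 kb downstream and held no annotated gene. Its widths ran from 809 bp, the narrowest peak of the locus (2903), to 2315 bp (2902). A Sox word was present in 8 of the 11 centres, an E-box in 7 and a homeodomain word in 5, against 56.6, 74.1 and 52.1% of all peaks, and nothing is read from so few. Within it, peaks 2898, 2899 and 2900 formed a cluster of 11.4 kb with intervals of 4.14 and 3.65 kb. The members of this cluster differed in content. In their centres, peak 2898 had 3 homeodomain, 3 Sox and 2 T-box words with a single E-box, peak 2899 had 3 E-boxes and 3 Sox words with no homeodomain word, and peak 2900 had an octamer, ATGCAAAT, with 2 E-boxes and 2 Nfi single sites. The centre of peak 2904 had 5 homeodomain words, the most in any Zfp608 centre, and no E-box, while the whole peak had 6 and 1. Peak 2905 had 2 octamers, which began 95 and 83 bases before its midpoint.

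The third group, peaks 2906 to 2915, covered 240.0 kb around the gene. Its 3 peaks in the gene body, 2906, 2907 and 2908, were 37.8, 27.9 and 12.5 kb downstream of the start and all in intron 2, which is 40.8 kb long. No peak was listed in intron 3, which is longer, at 46.3 kb. None of these 3 peaks had an E-box word in its central 500 bp, but over their whole length they held 3, 2 and 2. Peaks 2909 and 2910, 25.6 and 51.0 kb upstream, were in introns of Gm4221, a long noncoding RNA gene of 89.1 kb that starts 130 bases from the Zfp608 start on the opposite strand. The 5 peaks within 60 kb of the start were 1527 to 2778 bp wide, so that even the narrowest exceeded the median of the locus.

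Further upstream in the same group, peaks 2911 to 2914 formed a cluster of 4 peaks in 14.4 kb at 143.8 to 156.8 kb, the cluster with the most peaks when peaks under 5 kb apart were joined. They were 1497, 1353, 954 and 1213 bp wide, with 1.19, 4.63 and 3.53 kb between them. In the central 500 bp, peaks 2911, 2912 and 2913 each had an E-box word. The centre of peak 2914 had none, and had a paired Nfi word together with 4 Sox words, the most Sox words in any Zfp608 centre. The whole peak held 1 E-box and 7 Sox words. The group ended with peak 2915 at 200.5 kb, 1646 bp wide.

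The fourth group was the largest, with 17 peaks (2916 to 2932) over 473.2 kb from 354.1 to 826.2 kb upstream, a stretch whose only annotated gene was AC149599.1. Here 13 of 17 centres had an E-box word and 9 had a homeodomain word, close to the 74.1 and 52.1% of all peaks. Peak 2924 at 558.4 kb (55705976 to 55710419) was 4444 bp wide, the third widest of all 6629. Peak 2931 at 772.7 kb was 3308 bp wide and ranked 20. Over their whole length they held 7 and 6 homeodomain words and 8 Sox words each, whereas their centres held 1 homeodomain word each.

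The same group had the closest peaks of the locus. Peaks 2925 and 2926 were separated by 0.10 kb and peaks 2927 and 2928 by 0.47 kb, and all 4 lay within 18.3 kb. The centre of peak 2925 had 3 Nfi single sites, and that of peak 2928 had 3 E-box words. The centre of peak 2920 had 5 of the 10 kinds of word, as did that of 2910 in the Gm4221 intron, and no other Zfp608 centre had more. Peak 2918 of the same group had none of the 10 kinds in its centre and the lowest GC content, 28.8%. The last peak, 2933, stood alone at 954.4 kb with 3 homeodomain words in its centre and no E-box in any of its 1119 bp.

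Peak width was not used to choose the genes. The Zfp608 peaks were 809 to 4444 bp wide, with a median of 1357 bp, and the 6 Zfp609 peaks were 885 to 1339 bp wide, with a median of 1193 bp. Over all peaks the median was 1017 bp. At or above the 75th percentile of all peaks, 1260 bp, were 25 of 42 Zfp608 peaks (59.5%) and 1 of 6 Zfp609 peaks (16.7%), against 25.1% of all peaks. At or above the 90th percentile, 1643 bp, were 9 Zfp608 peaks (21.4%) and 0 Zfp609 peaks, against 10% of all. Zfp608 peaks were wide on both sides, with a median of 1353 bp upstream and 1361 bp downstream. Peaks of 1 locus and 1 library are not replicates, and no test was made of the difference.

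Wide peaks were more frequent where peaks were crowded, in the rest of the genome too. Of the peaks elsewhere with 0 to 4 other peaks within 1 Mb, 18.7% reached the 75th percentile, and of those with 30 or more others 38.1% did. Zfp608 peaks had 19 to 42 others within 1 Mb. The 601 peaks elsewhere with at least 19 others had a median width of 1098 bp, and 33.1% of them reached the 75th percentile, compared with 59.5% of the Zfp608 peaks. This comparison was added after the widths had been seen. The list gives no read counts, so whether wide peaks also had more reads is not known.

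**Figure D4:**
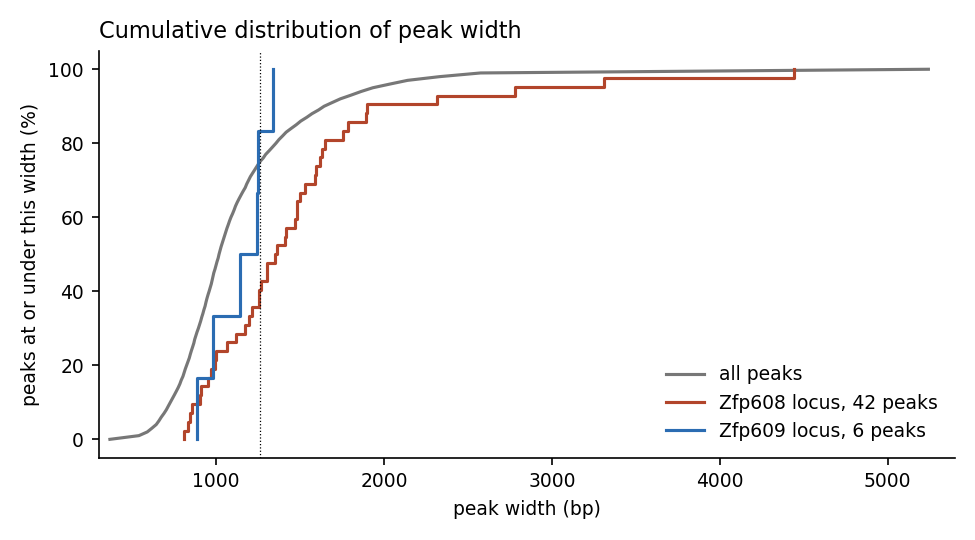
Cumulative share of peaks (%) at or under each width (bp) for all 6629 peaks, the 42 Zfp608 peaks and the 6 Zfp609 peaks. The dotted line is the 75th percentile of all peaks (1260 bp), and the Zfp608 curve lies to the right of that of all peaks over most of its range.

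The Zfp608 peaks were relatively poor in GC. In the central 500 bp their GC content was 28.8 to 60.8% with a median of 42.1%, against 46.2% for all peaks and 53.8% for the 6 Zfp609 peaks. The surrounding 2 Mb had 40.8% GC at Zfp608 and 44.2% at Zfp609. The highest value at Zfp608 was that of peak 2906 in intron 2. The observed to expected ratio of CpG had medians of 0.29 at Zfp608, 0.32 at Zfp609 and 0.24 over all peaks, so none of the sets was rich in CpG.

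Words bound by cortical transcription factors were counted on both strands of the central 500 bp of each peak. An E-box word (CATCTG or CAGCTG) was present in 26 of 42 Zfp608 peaks (61.9%, exact Clopper-Pearson 95% interval 45.6 to 76.4%), against 74.1% of all peaks. In 78 windows of the same length placed 10 kb to either side of the Zfp608 peaks the share was 34.6%, and beside all peaks it was 46.6%. The E-box was thus more frequent in the Zfp608 peaks than beside them, and the share over all peaks lay inside the interval. CATCTG occurred in 18 Zfp608 peaks (42.9%) and CAGCTG in 13 (31%), against 57.3 and 39.7% of all peaks. All intervals cover counting error only.

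The E-box share varied with width in the whole list. It was 64.4% in the 1662 peaks at or above the 75th percentile of width and 77.4% in the narrower ones. In the Zfp608 locus it was 14 of 25 (56%) in the wide peaks and 12 of 17 (70.6%) in the narrow ones. Over whole peaks, 38 of 42 Zfp608 peaks (90.5%) had an E-box word, against 88.6% of all, and there were 1.57 E-box words per kb at Zfp608, 2.05 at Zfp609 and 2.08 in all peaks. Among all peaks with a GC content between the quartiles of the Zfp608 peaks, 72.6% had an E-box in the centre. The splits by width and GC were added after the shares had been seen, and the part of either in the Zfp608 share was not tested.

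A homeodomain word (TAATTA or TAATTG) was present in 23 Zfp608 peaks (54.8%, interval 38.7 to 70.2%) and in 52.1% of all peaks. Beside the Zfp608 peaks the share was 42.3%, higher than the 31.8% beside all peaks. Both an E-box and a homeodomain word were present in 14 Zfp608 peaks (33.3%) and in 36.4% of all peaks. A Sox word (ACAAAG or ACAATG) was found in 25 Zfp608 peaks (59.5%) and in 56.6% of all, but also in 52.6% of the windows beside them. The Sox word thus hardly set the peaks apart from their surroundings.

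The remaining words were rarer. The Nfi single site TTGGCA was present in 15 Zfp608 peaks (35.7%, interval 21.6 to 52%) against 42.4% of all peaks, and the Rfx single site GTTGCC in 9 (21.4%) against 19.8%. In the windows beside the Zfp608 peaks the shares were 30.8% for the Nfi and 10.3% for the Rfx site. Like the Sox word, the Nfi single site thus hardly set the peaks apart. The octamer ATGCAAAT, bound by POU factors, was in 3 peaks (7.14%, against 7.6% of all). It was in none of the 78 windows beside the Zfp608 peaks and in only 3.41% of those beside all peaks. These counts are too small for a contrast. The T-box word GGTGTGA, bound by factors such as Tbr1 and Eomes, was in 4 (9.52%, against 9.49%). The paired Nfi word was in 2, peaks 2914 and 2917 (4.76%, against 4.62%). Words that are contained in others, as the Nfi single site can be in a paired site, were counted under each kind.

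A second arrangement of the paired Nfi word (TGCCA and TGGCA separated by 3 bases) was in no Zfp608 centre, which allows a share of up to 8.41%, against 0.256% of all peaks. The cAMP response element TGACGTCA was likewise in no centre, against 0.407% of all peaks. Over whole peaks, the second arrangement was in 1 Zfp608 peak (2.38%, against 0.468% of all peaks). The cAMP response element was in 2 (4.76%, against 0.86%), and nothing is read from so few. For each of the 10 kinds of word the share over all peaks lay inside the interval of the Zfp608 share. With 42 peaks these intervals were wide, and moderate differences in word content could not have been seen.

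**Figure D5:**
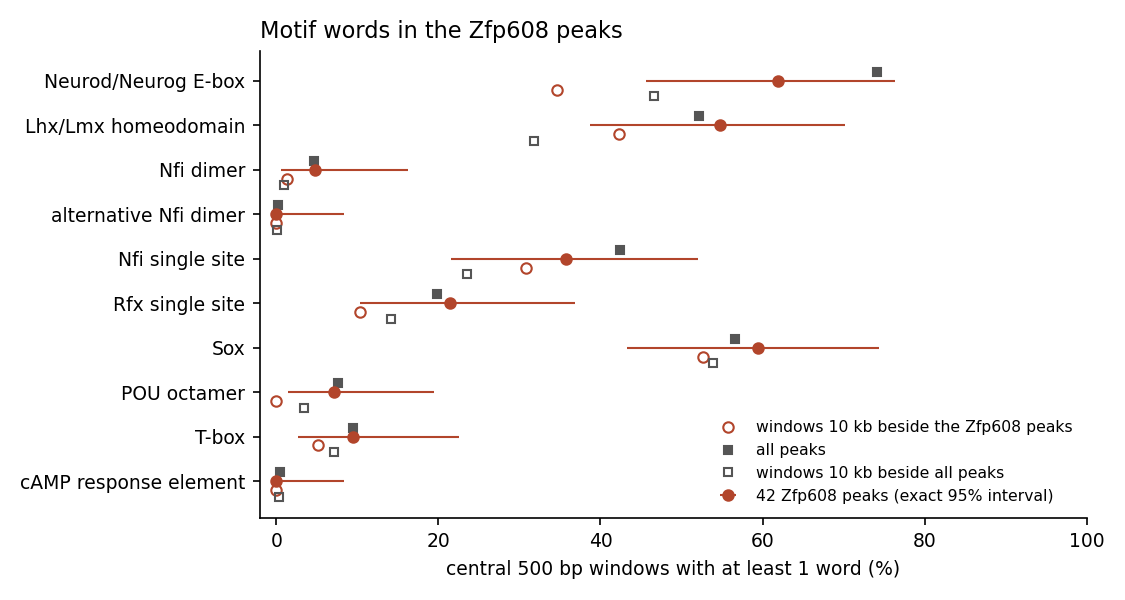
Share of central 500 bp windows (%) with at least 1 word of each of 10 kinds. Filled circles are the 42 Zfp608 peaks with exact 95% intervals, filled squares all 6629 peaks, and open symbols windows of the same length 10 kb beside them (78 and 13006). The filled squares all lie within the intervals, and for the E-box the windows beside the Zfp608 peaks (34.6%) lie below the interval.

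In the 6 Zfp609 peaks the E-box was found in 6, the Sox words in 3, a homeodomain word in 2 and an Rfx single site in 2. The octamer, the T-box word, the Nfi single site and the paired Nfi word were in 1 peak each. TAATTA was in 16 of 42 Zfp608 peaks and in 0 of 6 Zfp609 peaks, and with 6 peaks the exact intervals spanned most of the range, 54.1 to 100% for the E-box and 4.33 to 77.7% for the homeodomain words.

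The longest stretches of sequence shared by Zfp608 peaks were mostly repeats. Over the 861 pairs of Zfp608 peaks, the longest word common to both had a median length of 12 bases. It reached 20 bases in 47 pairs, which involved 16 peaks, and in 35 of these the word was a simple repeat of a unit of at most 6 bases. In the other 12 pairs the full word did not keep to such a unit, for which a single base beyond a repeat was enough. The longest of these words was of 39 bases, in peaks 2896 and 2923. Both peaks had a run of GA repeats, of 41 and 38 bases, so these words are not shown to be free of repeats. The longest at Zfp608, 48 bases in peaks 2899 and 2923, lay in such tracts, as both peaks had a run of CA repeats. Between the loci, the longest common word in 252 pairs was of 21 bases. Within the Zfp609 locus, peaks 6402 and 6407 shared 56 bases, peaks 6405 and 6407 shared 35, and peaks 6402 and 6405 shared 28. None of these words was a repeat of a unit of at most 6 bases. Whether the 3 peaks hold copies of a longer repeat was not tested.

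A run of at least 20 bases in which 2 different bases alternate was present in 11 of 42 Zfp608 peaks (26.2%, interval 13.9 to 42%), in 0 of 6 Zfp609 peaks and in 14.7% of all peaks. All the runs at Zfp608 were of CA or GA on either strand. Peak 2923 had the longest, a CA run of 56 bases, and also a GA run of 38, and peak 2915 had runs of 45 and 54 bases. The share was 21.7% in all peaks at or above the 75th percentile of width, and 24% (6 of 25) in the Zfp608 peaks of that width. In the 601 peaks elsewhere with at least 19 others within 1 Mb it was 18.6%. The part of width or crowding in the Zfp608 share was not tested. Per kb there were 0.224 runs in the Zfp608 peaks, 0.166 in all peaks, 0.169 in all wide peaks and 0.203 in those 601 peaks. Of the Zfp608 centres, 3 had a run (7.14%), against 5.51% of all centres. This search was made after the shared words had been seen. Words of 36 bases occurred once in the assembly at 98.5% of positions within the Zfp608 peaks and at 93.2% within the Zfp609 peaks.

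Gm10192, Gm9869 and Tmem132b had the distributions of peaks most like that of Zfp608, by Euclidean distance over the 10 bins of 200 kb. Only coding genes with at least 10 peaks were searched, and those kept were more than 2 Mb from one another and from Zfp608. Whether their windows hold peaks of better known genes nearby was not examined. Gm10192 had 26 peaks and a distance of 6.0, Gm9869 27 peaks and 7.0, and Tmem132b 25 peaks and 7.4, whereas a locus with no peak would be at 15.0. All 3 had fewer peaks than Zfp608, and they had 9, 9 and 13 other coding starts within 1 Mb.

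Among 14 pairs of paralogs with cortical expression or function, the difference of 36 peaks between Zfp608 and Zfp609 was the largest, followed by 22 for Tox3 (25) and Tox (3), which encode HMG-box proteins. Tle3 had 30 peaks and Tle4, another co-repressor of the Groucho family, 10. Sox4 and Sox11 had 31 and 32 peaks and Nfia and Nfib 28 and 36. The ratio for Tox3 and Tox, 8.33, was above the 7-fold ratio of Zfp608 and Zfp609. No ratio could be given for the p300 gene Ep300, since its paralog Crebbp had 0 peaks. In the remaining pairs the counts differed by 4 to 17. The pairs were listed with the result for Zfp608 known.

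As a set, the genes of the complexes with which ZFP609 is known to act did not have many peaks, although 2 of them did. Of 23 genes of the cohesin loader, cohesin and Integrator, 22 were found in the annotation, and they had 0 to 21 peaks with a median of 4.5, close to the median of 4 of all coding genes. Ints1 (21) and Ints4 (20), subunits of Integrator, had the most, above the 95th percentile of all coding genes (14 peaks). Nipbl and Ints5 had 0. At least 6 peaks, the number of Zfp609, were counted for 9 of the 22, against 36.1% of all coding genes, so the share was near the background.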

How the data were processed

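Chromatin of E14.5 dorsal cerebral wall was immunoprecipitated for p300 and sequenced in 1 library, with 1 input library, so no p-value is given. The authors aligned reads of 36 bp to mm9 with ELAND, and called peaks over the input with MACS 1.4. Their filter kept only distal, nonexonic peaks, with 2.5 kb as the least distance from a start site, and took out those with doubtful read mapping. Each peak of the deposited list has a number and its coordinates only, without score, signal or reads, so the depth and precision behind a single peak are unknown, and the input was not analysed here. The exon and start site filter used another gene set than the one used here.

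Positions were compared with the NCBIM37 assembly (mm9) and the 22367 protein-coding genes of GENCODE vM1. Midpoints within 1 Mb were counted, words were matched exactly on both strands, and shares carry exact Clopper-Pearson 95% intervals for counting error only. Printed sequence is that of the reference assembly and not of Swiss Webster mice. Proteins were translated from the GENCODE coding sequences and aligned with BLOSUM62 (gap opening 11, extension 1). Python 3.11.15 was used with numpy 2.4.6, scipy 1.17.1, pysam 0.24.0, numba 0.67.0, Biopython 1.88 and matplotlib 3.10.9, and the counting was tested on simulated data. The genes, lists and words were chosen with earlier results of these data known. Genes were named by rule: the neighbours, the genes nearest a peak, the 3 most alike loci, and the listed pairs and partners. Not all of these pairs are reported singly here.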

Additional observations from a re-analysis of the deposited data

How the results depend on the processing

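The peak counts depended on the distance used. Within 500 kb there were 24 peaks at Zfp608 and 2 at Zfp609, and within 250 kb there were 11 and 2. Zfp608 kept the higher count at each distance. When only peaks whose nearest coding start was that of the gene were counted, there were 32 at Zfp608 and 1 at Zfp609. By its rule this count depends on how far away the next coding starts are. These were 1005.9 and 1410.2 kb from Zfp608, but 197.0 and 62.7 kb from Zfp609. The share of coding genes with at least as many peaks as Zfp609 was 36.1% within 1 Mb and 48.7% within 500 kb, and that for Zfp608 was 0.0581 and 0.0715%. With peaks less than 5 kb apart joined, 31 remained at Zfp608 and their median spacing was 39.5 kb, against 25.4 kb. Counting from any annotated start of the gene, from the gene body or by any overlap with the window left 42 and 6 peaks. The share of Zfp608 peaks with an E-box was 90.5% over whole peaks and 42.9% in the central 250 bp, against 61.9% in the central 500 bp, and over all peaks these shares were 88.6, 57.5 and 74.1%. No paired analysis was possible because each group had 1 library. The exact intervals could not be narrowed, since they rest on 42 and 6 peaks.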
